A study of Mus musculus with 69 samples.

Results

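The 6 genes described here, Gria2, Grin1, Grin2b, Grin2d, Grik3 and Grik5, encode subunits of the ionotropic glutamate receptors, and they were taken by name from a table of 9930 genes measured in mouse hippocampus. RNA sequencing covered 69 male mice, 1 library per mouse, that were wildtype (wt) or knockout (ko) for Cdh13, which encodes T-cadherin, an adhesion protein anchored in the cell surface. Litters of the maternal separation groups (MS) spent 3 h away from the mother on each day from P1 to P14, whereas litters of the control groups (Ctr) were only handled. Brains were collected on postnatal day 22 (P22), when pups were weaned, or on postnatal day 66 (P66), in adulthood. The wildtype mice numbered 8 control and 11 separated at P22 and 7 control and 10 separated at P66. The knockout mice numbered 9 control and 10 separated at P22 and 7 of either kind at P66. Every group was bred in 2 rounds, called cohort 1 and cohort 2. The labels used here give neither the strain nor how the knockout was made, and separation was applied to whole litters, which the labels do not name.

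Ionotropic glutamate receptors are ion channels of 4 subunits that open when glutamate binds, and they carry most fast excitatory transmission in the brain. AMPA receptors open and close fastest, NMDA receptors need a co-agonist and relief from magnesium block and admit calcium, and kainate receptors act on both sides of the synapse. In the hippocampus NMDA receptors are known for their role in synaptic plasticity and AMPA receptors for expressing it. Gria2 encodes GluA2, the AMPA receptor subunit whose edited form makes the channel almost impermeable to calcium. Grin1 encodes GluN1, which every NMDA receptor contains. Grin2b and Grin2d encode GluN2B and GluN2D, glutamate-binding NMDA receptor subunits, the latter known from interneurons. Grik3 encodes GluK3, a kainate receptor subunit that forms channels by itself, and Grik5 encodes GluK5, a high-affinity subunit that needs a partner.

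The coding sequences of Gria2, Grin1, Grik3 and Grik5 share 1 stretch that shows their kinship, in the third membrane segment that lines the pore. A search of the translated coding sequences of all 6 genes found that the longest peptide shared by all has 9 residues. It occurs once in each of these 4 proteins. The stretch is shown for these 4 genes only, although the peptide is also in the proteins of Grin2b and Grin2d. The capitals below mark the 27 bases that encode it, with 24 bases on each side, on the coding strand, from GENCODE M21 transcripts (build GRCm38):
Gria2: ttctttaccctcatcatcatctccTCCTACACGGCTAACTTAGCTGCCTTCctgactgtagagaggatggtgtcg
Grin1: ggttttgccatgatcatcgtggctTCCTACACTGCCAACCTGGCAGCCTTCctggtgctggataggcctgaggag
Grik3: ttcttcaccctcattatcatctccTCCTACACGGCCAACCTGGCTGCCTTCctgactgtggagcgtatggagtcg
Grik5: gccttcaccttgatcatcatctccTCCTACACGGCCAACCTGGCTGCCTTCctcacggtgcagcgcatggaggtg

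Over these 75 bases Gria2 and Grik3 were 88% identical and Grik3 and Grik5 85.3%, whereas Gria2 and Grin1 shared 64%. In Grik3 and Grik5 all 27 bases in capitals were the same. The stretches differed in G and C content, from 49.3% in Gria2 to 60% in Grik5. At the third codon position, 19 of 25 bases were G or C in Gria2 and 24 of 25 in Grik5. The difference extended over the whole messages. Among all 6 genes the longest protein-coding transcript of Gria2 has 36.8% G and C, that of Grin2b 45.7%, of Grik3 54.2%, of Grin1 59.4%, of Grik5 62.3% and of Grin2d 65.0%.

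All 4 stretches lie within a single exon. That of Gria2 is in exon 12 of 16 at chr3:80702545-80702619 and that of Grin1 in exon 15 of 21 at chr2:25297175-25297249, both on the minus strand. That of Grik3 is in exon 13 of 16 at chr4:125694018-125694092 (plus) and that of Grik5 in exon 16 of 20 at chr7:25015895-25015969 (minus). The genes themselves were counted as Gria2 (ENSMUSG00000033981.14, chr3:80681450-80802835), Grin1 (ENSMUSG00000026959.13, chr2:25291181-25319187), Grin2b (ENSMUSG00000030209.14, chr6:135713233-136173511), Grin2d (ENSMUSG00000002771.12, chr7:45831883-45878378), Grik3 (ENSMUSG00000001985.9, chr4:125490700-125714173) and Grik5 (ENSMUSG00000003378.9, chr7:25009849-25072346). Antisense RNAs overlap 1307 bases (13.5%) of the Grin1 exons (Grin1os) and 643 bases (9.66%) of the Grin2d exons (Gm45441). Whether counting used the strand is not given in the sources used here, so reads of these 2 genes and of their antisense partners cannot be told apart.

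The libraries held 11283370 to 16365465 counts over the genes of chromosomes 1 to 7 and part of 8. The level of Cdh13 itself was not analysed, and genotype was taken from the labels alone. Of 5 dentate gyrus and 4 CA field marker genes in the table none was without counts in any group. One library, that of the separated knockout mouse 56 of cohort 1 at P66, stood apart in several of the 6 genes, and results that rest on it are given with and without it. A second axis on which libraries differed was the GC slope, the change in log2 level per 10 percentage points of transcript GC content, fitted over genes outside all lists used here. It ran from -0.194 to 0.411 (SD 0.108, n = 69), and the highest value belonged to the same library. Its group means at P22 ran from -0.032 in control wildtype to 0.068 in control knockout mice.

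All 6 subunit genes were well measured in each library. The smallest count of any was 364, for Grin2d, and the largest 31362, for Gria2. Levels were scaled to a fixed library total after normalisation (CPM). Per kilobase of merged exons, Grin1 had the highest mean level over the 69 libraries, 133 ± 12.3 (SD). Grik5 followed at 125 ± 9.12, Gria2 at 110 ± 20.9, Grin2b at 48.4 ± 7.69, Grik3 at 37.1 ± 4.27 and Grin2d at 6.62 ± 0.682. Among 7121 tested genes with a length these levels per kilobase lay at percentiles 95.6, 95.1, 94.2, 84.4, 79.0 and 36.1. By this measure the obligatory NMDA receptor subunit and the GluK5 gene were at about the level of the AMPA receptor subunit. The GluN2D gene was far below them. Merged exons are longer than the longest protein-coding transcript. They have 9700 against 4276 bases in Grin1, 5168 against 3763 in Grik5 and 15548 against 10371 in Gria2. Ratios between genes depend on the length chosen, and levels by transcript length were not computed. Per kilobase of merged exons the upper 3 genes were not clearly separated. Grin1 exceeded Grik5 in 54 of 69 libraries. Grik5 exceeded Gria2 in 34 of 38 libraries at P22 but in 14 of 31 at P66. Gria2 exceeded Grin2b, and Grik3 exceeded Grin2d, in all 69 libraries. Grin2b exceeded Grik3 in 61.

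The AMPA receptor gene Gria2 varied most in absolute level. At P22 its normalised level in control wildtype mice had a lowest, median and highest value of 1534, 1748 and 2214 CPM. In separated wildtype mice these were 1219, 1580 and 1878 CPM. Control knockout mice had 1214, 1439 and 1901 CPM, and separated knockout mice 1150, 1514 and 2069 CPM. Control wildtype mice thus lay highest at P22, with each of the other groups overlapping them. At P66 the lowest, median and highest values were 1326, 1911 and 2064 CPM in control wildtype mice and 1516, 1961 and 2251 CPM in separated wildtype mice. Control knockout mice had 1289, 2005 and 2394 CPM and separated knockout mice 707, 1835 and 2152 CPM. The value of 707 CPM came from mouse 56, and the 4 groups overlapped widely.

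**Figure D1:**
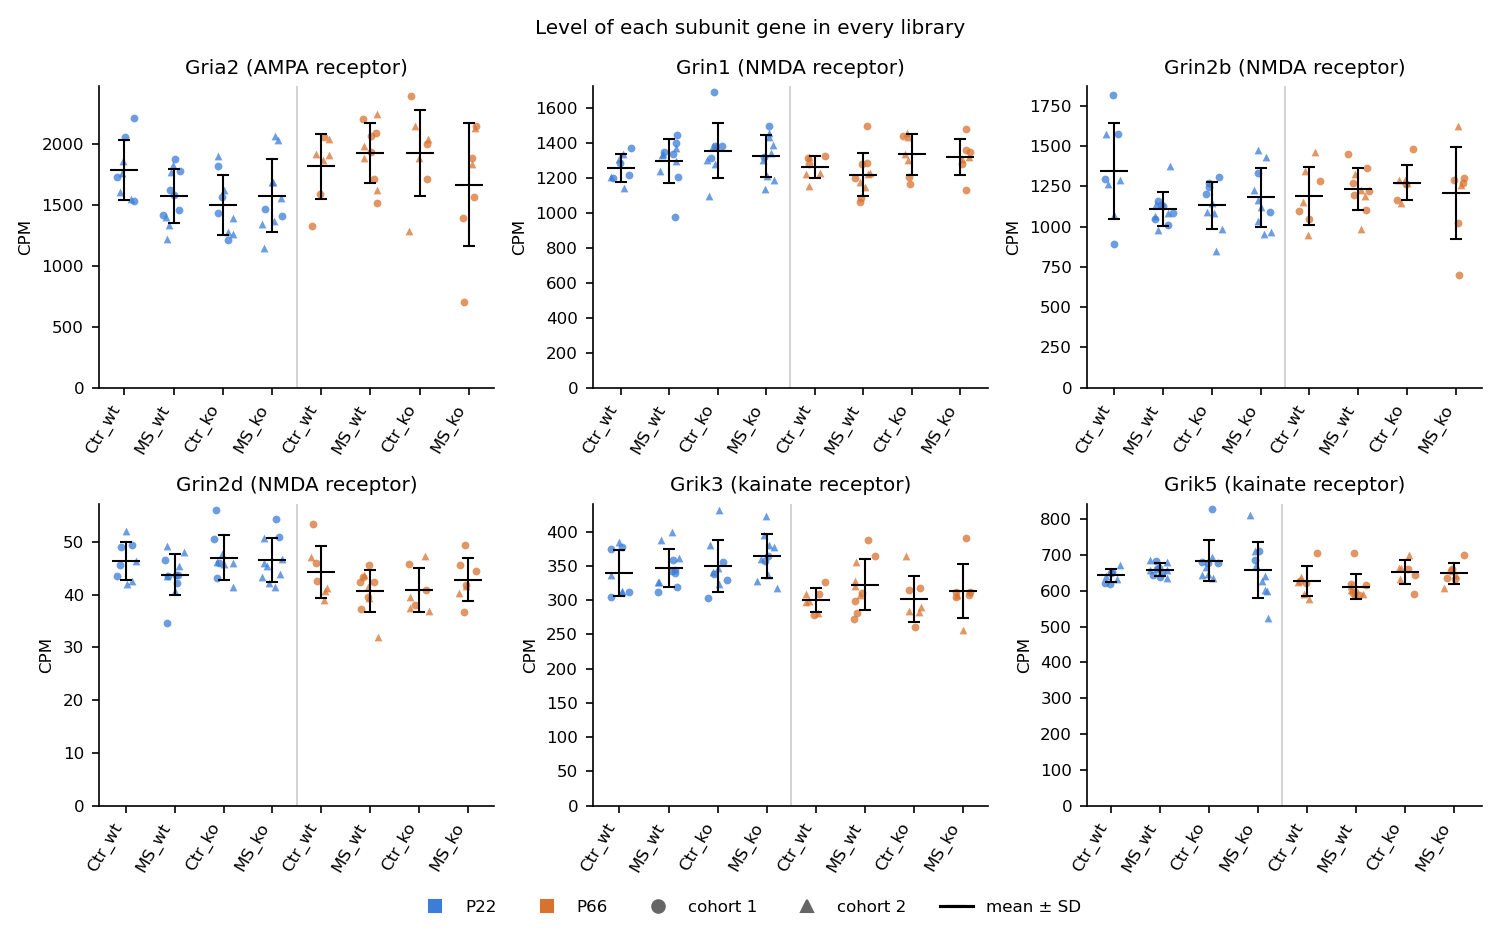
CPM of each subunit gene (y axis) in every library of the 8 groups (x axis), blue at P22 and orange at P66, circles for cohort 1 and triangles for cohort 2, with the group mean and SD in black. The groups of each gene overlap, Grik3 is lower at P66, and 1 separated knockout library at P66 has the lowest Gria2 (707 CPM) and the lowest Grin2b (703 CPM) of all.

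Of the NMDA receptor genes, Grin1 had the narrowest group means, from 1217 CPM in separated wildtype mice at P66 to 1354 CPM in control knockout mice at P22, a ratio of 1.11. Its single libraries ran from 977 to 1688 CPM (median 1322) at P22 and from 1062 to 1498 CPM (median 1278) at P66. Grin2b was spread more widely. At P22 control wildtype mice had a lowest, median and highest value of 890, 1291 and 1818 CPM, and separated wildtype mice 979, 1085 and 1375 CPM. Control knockout mice had 850, 1145 and 1311 CPM and separated knockout mice 958, 1145 and 1478 CPM. The highest Grin2b value at P22 belonged to a control wildtype mouse, and the lowest of that group, 890 CPM, lay below all separated wildtype mice. At P66 the medians were 1153 CPM in control and 1223 CPM in separated wildtype mice, and 1274 CPM in control and 1273 CPM in separated knockout mice, and the ranges of all 4 groups overlapped. Grin2d was the scarcest of the 6, with 34.6 to 55.99 CPM (median 45.6) at P22 and 31.97 to 53.4 CPM (median 41.6) at P66.

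Of the kainate receptor genes, Grik3 ran from 303 to 432 CPM (median 344) at P22 and from 257 to 392 CPM (median 308) at P66. Of the 31 libraries at P66, 12 lay below the lowest library at P22 and none above the highest. The highest group mean of Grik3 was 364 ± 32.03 CPM (SD, n = 10), in separated knockout mice at P22, and the lowest 300 ± 16.9 CPM (SD, n = 7), in control wildtype mice at P66. Grik5 ran from 524 to 827 CPM (median 656) at P22 and from 577 to 707 CPM (median 626) at P66. Its spread within groups was as low as 2.70% of the mean, in separated wildtype mice at P22, the smallest of any group and any of the 6 genes.

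Between P22 and P66 the subunit genes moved in different directions, and by little. Gria2 rose, while Grik3, Grin2d and Grik5 fell. Averaged over the 4 groups of genotype and rearing, with cohort as a covariate, Gria2 was 1.14-fold higher at P66 (log2 change 0.19 ± 0.064 SE, 95% interval 0.063 to 0.32). Adjustment was by Benjamini-Hochberg over all genes tested with edgeR's quasi-likelihood test, and Gria2 passed at adjusted p = 0.0100. In 25 of 31 P66 libraries Gria2 exceeded the P22 median. Grik3 fell by 0.18 on the log2 scale (SE 0.035, adjusted p = 1.78e-05), with 26 of 31 P66 libraries below the P22 median. Grin2d fell by 0.13 (SE 0.032, adjusted p = 0.000472), with 24 of 31 below, and Grik5 fell by 0.064 (SE 0.024, adjusted p = 0.0195), with 22 of 31 below. Grin1 (-0.034 ± 0.032, adjusted p = 0.369, interval -0.098 to 0.029) and Grin2b (0.042 ± 0.054, adjusted p = 0.5258, interval -0.065 to 0.15) did not pass. The groups at P22 and P66 overlapped in all 6 genes.

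These 4 of 6 stand beside 52% of all 7131 genes tested that passed, 1867 of them higher and 1840 lower at P66. The median change of the 6 genes was -0.049, and that of all genes 0.0089. In whole tissue, fewer cells of a type and less RNA per cell cannot be told apart. Within single cohorts the directions of the 4 called genes were kept, with Gria2 at 0.15 (adjusted p = 0.313) in cohort 1 and 0.29 (adjusted p = 0.00435) in cohort 2. Grik3 fell by 0.14 (adjusted p = 0.0495) in cohort 1 and by 0.24 (adjusted p = 0.000216) in cohort 2. Grin2d fell by 0.16 (adjusted p = 0.00470) in cohort 2 and had -0.13 (adjusted p = 0.0503) in cohort 1. Grik5 had -0.076 (adjusted p = 0.0683) and -0.069 (adjusted p = 0.135). Grik5 also missed the threshold with upper quartile scaling (-0.052, adjusted p = 0.0697) and with a stricter count filter (-0.054, adjusted p = 0.0520). It had -0.054 when control wildtype mouse 85 (adjusted p = 0.0529) or separated knockout mouse 77 (adjusted p = 0.0530), both of cohort 2 at P22, was left out. Without the divergent mouse 56 the change of Gria2 was 0.22 (adjusted p = 0.000521).

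**Figure D2:**
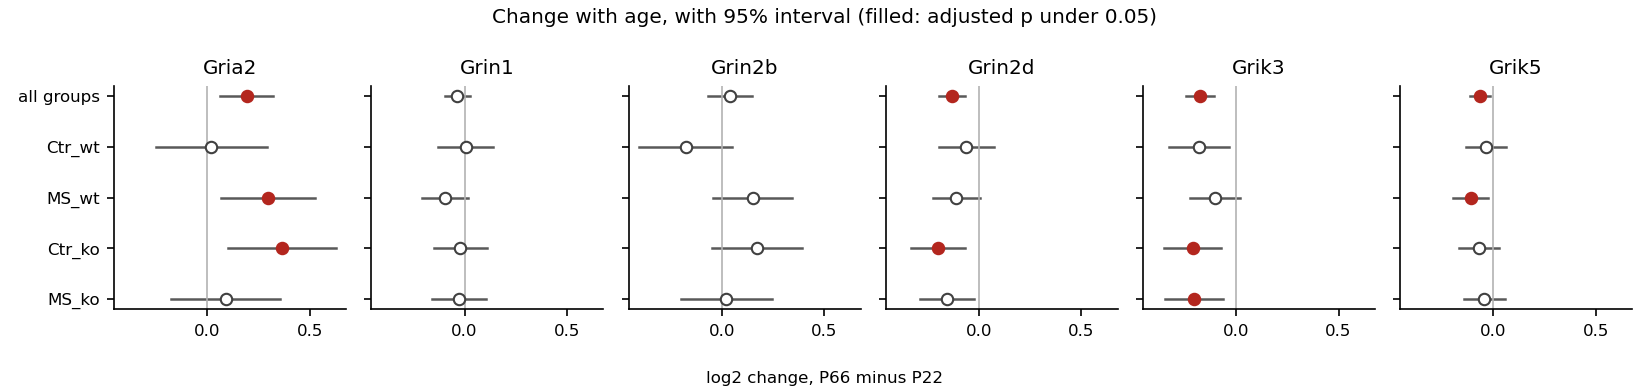
Log2 change from P22 to P66 (x axis) of each subunit gene over all groups and within each group (rows), with 95% intervals. Filled points passed an adjusted p under 0.05. Gria2 lies at 0.19 over all groups and Grik3 at -0.18, and the intervals within groups overlap for each gene.

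Within the 4 groups taken singly, fewer subunit genes passed, beside a lower share of all genes. In control wildtype mice none of the 6 did, where 18.9% of all genes passed, and Grik3 came closest (-0.18 ± 0.072, adjusted p = 0.0713). By unadjusted p under 0.05 it was 1 gene, beside 2171 of all 7131, and neither DESeq2 nor limma-voom called any. In separated wildtype mice, with 30.8% of genes called, Gria2 rose by 0.29 (adjusted p = 0.0425) and Grik5 fell by 0.11 (adjusted p = 0.0376). In control knockout mice, with 28.1% called, Gria2 rose by 0.36 (adjusted p = 0.0321), Grik3 fell by 0.21 (adjusted p = 0.0188) and Grin2d fell by 0.20 (adjusted p = 0.0184). None of these 3 was called in cohort 1 alone or with the oligodendrocyte score as covariate, only Grik3 was called in cohort 2 alone, and 1 stayed called without mouse 4 of cohort 1 or mouse 43 of cohort 2 at P22, or mouse 22 of cohort 1 at P66. In separated knockout mice, with 19.2% called, Grik3 fell by 0.20 (adjusted p = 0.0342). Without mouse 56 of cohort 1 at P66, Grik3 fell by 0.26 (adjusted p = 0.00496) and Grin2d by 0.19 (adjusted p = 0.0468, beside 0.0962 with that mouse). Leaving out single libraries changed the number of calls in 21 of 69 cases for separated wildtype and in 17 for separated knockout mice. Differences among the 4 groups were tested as interactions. None of the 6 genes passed for age by genotype, where 0% of all genes did. For age by rearing 0.0421% of all genes passed, and for the interaction of age, genotype and rearing 0.014%, again with none of the 6. DESeq2 and limma-voom called none in any of the 3 either.

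In the interaction of all 3 factors, 1000 of 7131 genes had an unadjusted p under 0.05 with edgeR. Of the 6 subunit genes 2 did. They were Gria2 (-0.55 ± 0.26, interval -1.06 to -0.033, adjusted p = 0.336) and Grin2b (-0.48 ± 0.21, interval -0.90 to -0.046, adjusted p = 0.330). Without mouse 56 these became -0.42 and -0.38 (both adjusted p = 0.547). With the GC slope of each library as a covariate, an alternative added after the data were seen, they became -0.17 and -0.26. In cohort 1 alone they were -0.76 and -0.67, and in cohort 2 alone -0.17 and -0.13.

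Markers of some cell types moved with age by more than the subunit genes, and those of others by about as much or less. All 6 oligodendrocyte marker genes in the table fell, among them Ugt8a (-1.81) and Cldn11 (-1.64), and their summed level ran from 1687 to 4219 CPM at P22 and from 692 to 1904 CPM at P66. All 3 newborn neuron markers fell (Igfbpl1 by 2.00, Draxin by 1.37 and Neurod1 by 0.31), with summed levels of 68.5 to 140 CPM at P22 and 44.4 to 80.1 CPM at P66. Both oligodendrocyte precursor markers fell (Neu4 by 0.89 and Pdgfra by 0.40), as did all 4 astrocyte markers (by 0.095 to 0.21). Of 11 interneuron markers 1 rose and 4 fell, with nearly the same summed range at P22 (1495 to 1958 CPM) and P66 (1582 to 2123 CPM). Of 5 excitatory neuron markers 1 rose and 2 fell (6682 to 9811 CPM and 7007 to 8817 CPM in sum). Of 4 CA field markers Fibcd1 rose by 0.27 while Wfs1 and Bok fell by 0.36 and 0.18, and of 4 endothelial markers Flt1 rose by 0.28 and Slc2a1 fell by 0.49. Changes of the 5 microglia markers lay between -0.042 and 0.074 on the log2 scale. Summed levels of the 7 choroid plexus markers ran from 57.2 to 514 CPM at P22 and from 52.6 to 561 CPM at P66. No marker list was at 0 in any group. Scores of the oligodendrocyte and choroid plexus lists were tried as covariates, and the part of the other lists in the changes of the subunit genes was not tested.

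The oligodendrocyte score nearly separates the ages. In log2 from its median it ran from -0.13 to 1.18 at P22 and from -1.25 to 0.13 at P66. A fit with this score as a covariate therefore cannot tell the part of oligodendrocytes from age itself. In that fit age gave -0.062 for Gria2 (adjusted p = 0.847) and 0.014 for Grik3 (adjusted p = 0.937). It gave -0.17 for Grin2d (adjusted p = 0.117) and -0.16 for Grik5 (adjusted p = 0.0252). The genes called by age among all tested fell to 953. Only Grik5 stayed called among the 6. With libraries of extreme choroid plexus level left out (6 of 69), the same 4 genes stayed called, with Gria2 at 0.17 (adjusted p = 0.0319).

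Other genes of glutamate transmission changed with age in both directions, by -0.53 to 0.45 on the log2 scale. Of 35 tested genes on 5 lists, 11 rose and 8 fell, which is 19 of 35 beside the 52% of all genes. Among auxiliary and clustering proteins 7 of 11 rose and 2 fell. The largest rise was that of C1ql2, a secreted C1q-like protein of mossy fibre synapses known to recruit kainate receptors, from 123 ± 23.4 CPM (SD, n = 38) to 169 ± 37.9 CPM (SD, n = 31), a log2 change of 0.45 (adjusted p = 2.98e-07). The largest fall was that of Nptx2, an activity-regulated pentraxin that clusters AMPA receptors, from 109 ± 21.5 to 78.5 ± 16.7 CPM (-0.47, adjusted p = 1.37e-09). C1ql2 is also on the list of dentate gyrus markers, of which 2 of 5 rose and 1 fell.

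Scaffold and signalling genes were divided, with 3 of 14 higher and 3 lower. Ppp3ca, a catalytic subunit of the phosphatase calcineurin, rose by 0.16 (adjusted p = 0.000565), from 3179 ± 293 to 3565 ± 477 CPM. Grip2, which binds AMPA receptor tails, fell by 0.18 (adjusted p = 5.07e-06), from 39.2 ± 3.54 to 34.4 ± 3.63 CPM. Of the 3 tested genes for RNA editing and co-agonist handling, Adar alone passed. It encodes an RNA editing enzyme and rose by 0.14 (adjusted p = 7.62e-09), from 389 ± 22.2 to 431 ± 22.0 CPM. Of 5 genes for glutamate supply and clearance 3 fell and none rose. Slc17a6, the vesicular glutamate transporter VGLUT2, fell furthest (-0.53, adjusted p = 0.000340), from 56.8 ± 19.97 to 39.1 ± 14.2 CPM. It also marks thalamus in the lists used here, where the other detected marker, Lef1, had -0.047 (adjusted p = 0.543). Grin3a, a further NMDA receptor subunit gene, had 0.047 (adjusted p = 0.479), with 123 ± 19.8 and 128 ± 19.2 CPM.

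**Figure D3:**
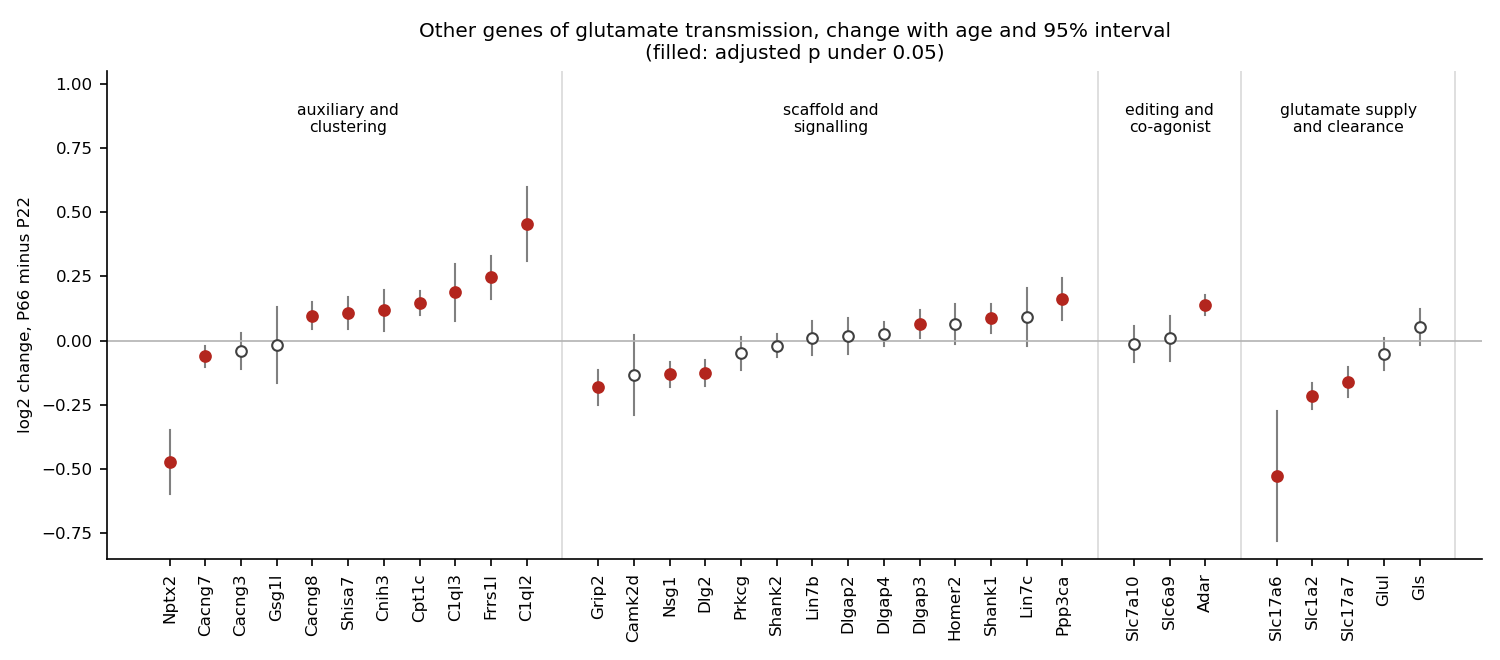
Log2 change from P22 to P66 (y axis, with 95% intervals) of the 33 tested genes of 4 lists of glutamate transmission (x axis), each list sorted by its change. Filled points passed an adjusted p under 0.05. Changes range from -0.53 for Slc17a6 to 0.45 for C1ql2, and auxiliary and clustering genes have 7 rises and 2 falls.

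Within an age, neither the loss of Cdh13 nor maternal separation moved a subunit gene past the threshold. At P22 and at P66 the contrasts were knockout against wildtype, separated against control, their interaction, and the 4 comparisons of single groups, 14 in all. None of the 84 tests passed with edgeR, DESeq2 or limma-voom, and 7 had an unadjusted p under 0.05 with edgeR. The background was as low: 0% of 7036 genes passed in each of the 7 contrasts at P22, and at P66 0.0571% of 7001 genes passed for genotype, 0.371% for rearing and 0% in the other 5. Of the 35 further glutamate genes none passed either with edgeR. Of their 490 tests 43 had an unadjusted p under 0.05, and the smallest adjusted p was 0.126. Among all genes, those with an unadjusted edgeR p under 0.05 numbered 143 to 851 of 7036 in the contrasts at P22. At P66 they numbered 269 to 855 of 7001.

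The intervals bound what such an effect could be. For knockout against wildtype at P22 the log2 differences were -0.12 (interval -0.27 to 0.029) for Gria2, 0.075 (-0.015 to 0.17) for Grin1 and -0.068 (-0.21 to 0.072) for Grin2b. They were 0.058 (-0.027 to 0.14) for Grin2d, 0.038 (-0.047 to 0.12) for Grik3 and 0.046 (-0.028 to 0.12) for Grik5. For separation against control at P22 the widest interval was that of Gria2, -0.050 (-0.20 to 0.095), and the narrowest that of Grik5, -0.0032 (-0.076 to 0.070). At P66 the genotype difference was largest in Grin1 (0.090, interval 0.0027 to 0.18, unadjusted p = 0.0437, adjusted p = 0.590 in edgeR) and Grik5 had 0.062 (0.0052 to 0.12, adjusted p = 0.539). In cohort 1 alone these 2 were 0.022 and 0.015, and in cohort 2 alone 0.16 (adjusted p = 0.0686) and 0.10 (adjusted p = 0.164). For separation at P66 the differences ran from -0.053 in Grin2d (interval -0.16 to 0.050) to 0.067 in Grik3 (-0.044 to 0.18). The widest intervals at P66 were those of Gria2, for genotype -0.061 (-0.28 to 0.16) and for separation -0.045 (-0.27 to 0.18).

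**Figure D4:**
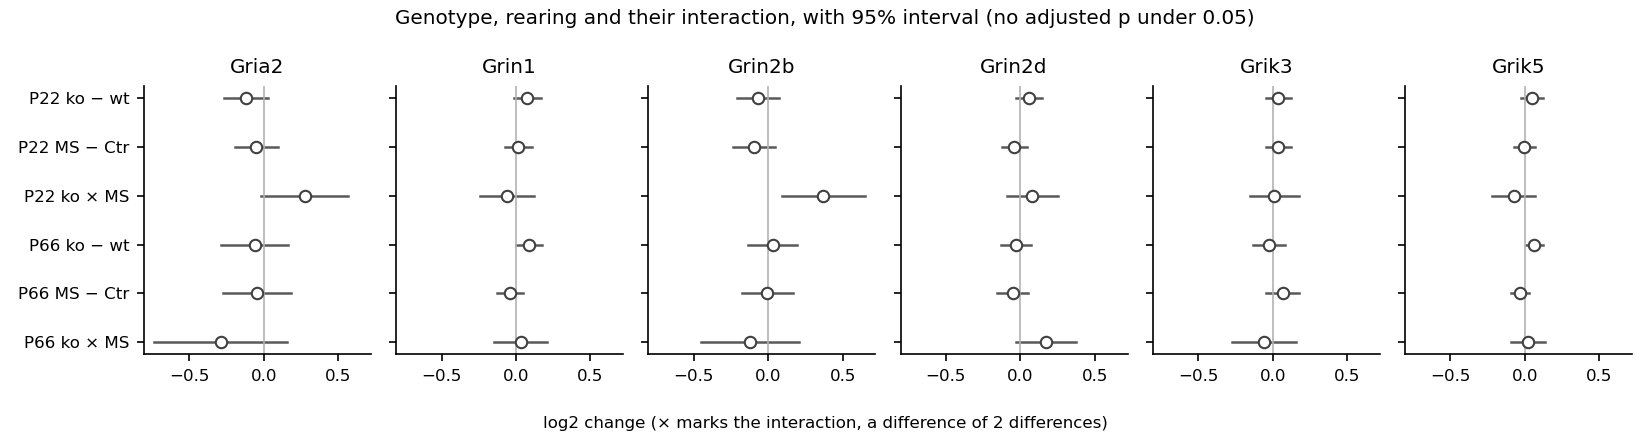
Log2 differences (x axis, with 95% intervals) of each subunit gene for knockout minus wildtype, separated minus control and their interaction, at P22 and P66 (rows). No point passed an adjusted p under 0.05. The interaction of Grin2b at P22 lies at 0.37 with an interval of 0.091 to 0.65, and Gria2 has the widest intervals.

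The smallest p of these 84 tests belonged to Grin2b at P22. Separated against control wildtype mice differed by -0.28 ± 0.097 on the log2 scale (unadjusted p = 0.00600, adjusted p = 0.753), with -0.34 in cohort 1 and -0.21 in cohort 2. Control knockout mice had -0.25 ± 0.10 against control wildtype mice (adjusted p = 0.389), and the interaction was 0.37 ± 0.14 (adjusted p = 0.584), with 0.29 in cohort 1 and 0.39 in cohort 2. Gria2 had values of the same signs, -0.19 ± 0.10, -0.26 ± 0.11 and 0.28 ± 0.14 (adjusted p = 0.762, 0.389 and 0.590). These contrasts share the control wildtype libraries, whose mean of Grin2b was 1347 ± 299 CPM (SD, n = 8), beside 1109 ± 104 (n = 11), 1132 ± 148 (n = 9) and 1181 ± 185 CPM (n = 10). With the GC slope as covariate the Grin2b values became -0.23, -0.12 and 0.26, and those of Gria2 -0.12, -0.065 and 0.12.

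The ratio of 2 genes within a library does not depend on how libraries are scaled. It can still vary with the GC slope, with which Gria2 and Grin2b fell within groups (Pearson r = -0.90 and -0.59) while Grin1 rose (0.72). The log2 ratio of Grin2b to Grin1 counts was -0.16 ± 0.28 (SD, n = 38) at P22 and -0.066 ± 0.27 (SD, n = 31) at P66, so it differed by less than the spread among mice. Among groups its mean was highest in control wildtype mice at P22, at 0.070 ± 0.30 (n = 8), and lowest in control knockout mice at P22, at -0.26 ± 0.23 (n = 9). These groups also had the lowest and the highest mean GC slope at P22, -0.032 and 0.068. The log2 ratio of Gria2 to Grin1 was 0.28 ± 0.33 at P22 and 0.51 ± 0.42 at P66. That of Grik3 to Grik5 was -0.92 ± 0.17 and -1.03 ± 0.16, and that of Grin2d to Grin2b was -4.68 ± 0.27 and -4.86 ± 0.29. No test was made of these ratios, and the part of the GC slope in them was not tested.

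Within groups, the levels of all 6 genes varied with the GC slope of the libraries. After group and cohort were removed, log2 levels of Gria2 (36.8% G and C) fell with the slope, at Pearson r = -0.90 and Spearman rho = -0.89 over 69 libraries. Those of Grin2b (45.7%) fell as well (r = -0.59, rho = -0.45). The other 4 rose with it: Grin1 at r = 0.72 (rho = 0.70), Grik3 at 0.62 (0.54), Grik5 at 0.56 (0.44) and Grin2d at 0.37 (0.34). In a permutation test with 100000 resamples, adjusted over the 6 genes, p was 1.2e-05 for 5 of the Pearson correlations, which comes from the smallest value these resamples can give, and 0.00189 for Grin2d. For Spearman's rho the adjusted permutation p ran from 2e-05 to 0.00545. The permutation test was run on the 6 genes only. How large a share of all genes would pass it was not computed, so these p do not set the 6 genes apart.

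Leaving out the 2 libraries farthest from the median of the residual slope, after group and cohort terms (separated knockout mouse 56 of cohort 1 at P66 and mouse 36 of cohort 2 at P22), gave r = -0.87 for Gria2, 0.72 for Grin1, -0.46 for Grin2b, 0.32 for Grin2d, 0.61 for Grik3 and 0.50 for Grik5. Within cohort 1 and cohort 2 the values were -0.93 and -0.86 for Gria2, 0.75 and 0.67 for Grin1, -0.54 and -0.64 for Grin2b, 0.48 and 0.24 for Grin2d, 0.61 and 0.63 for Grik3 and 0.53 and 0.60 for Grik5. The slope accounted for 80.9% of the residual variance of Gria2, 51.7% of that of Grin1 and 13.9% of that of Grin2d. It is a property of the whole library: 38.1% of all tested genes had a residual r beyond 0.5 in size, and across 7080 genes this r and GC content correlated at 0.75 (genes are not independent replicates). Only 1.68% of genes had an r below that of Gria2. Mean slopes were 0.018 at P22 and -0.015 at P66, with SDs of 0.099 and 0.12. With the slope as a covariate in the fit, the age change of Gria2 was 0.11 (adjusted p = 0.00210), that of Grik3 -0.15 (adjusted p = 2.76e-06), of Grin2d -0.12 (adjusted p = 0.000718) and of Grik5 -0.048 (adjusted p = 0.0352), so the same 4 genes passed in the same directions.

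**Figure D5:**
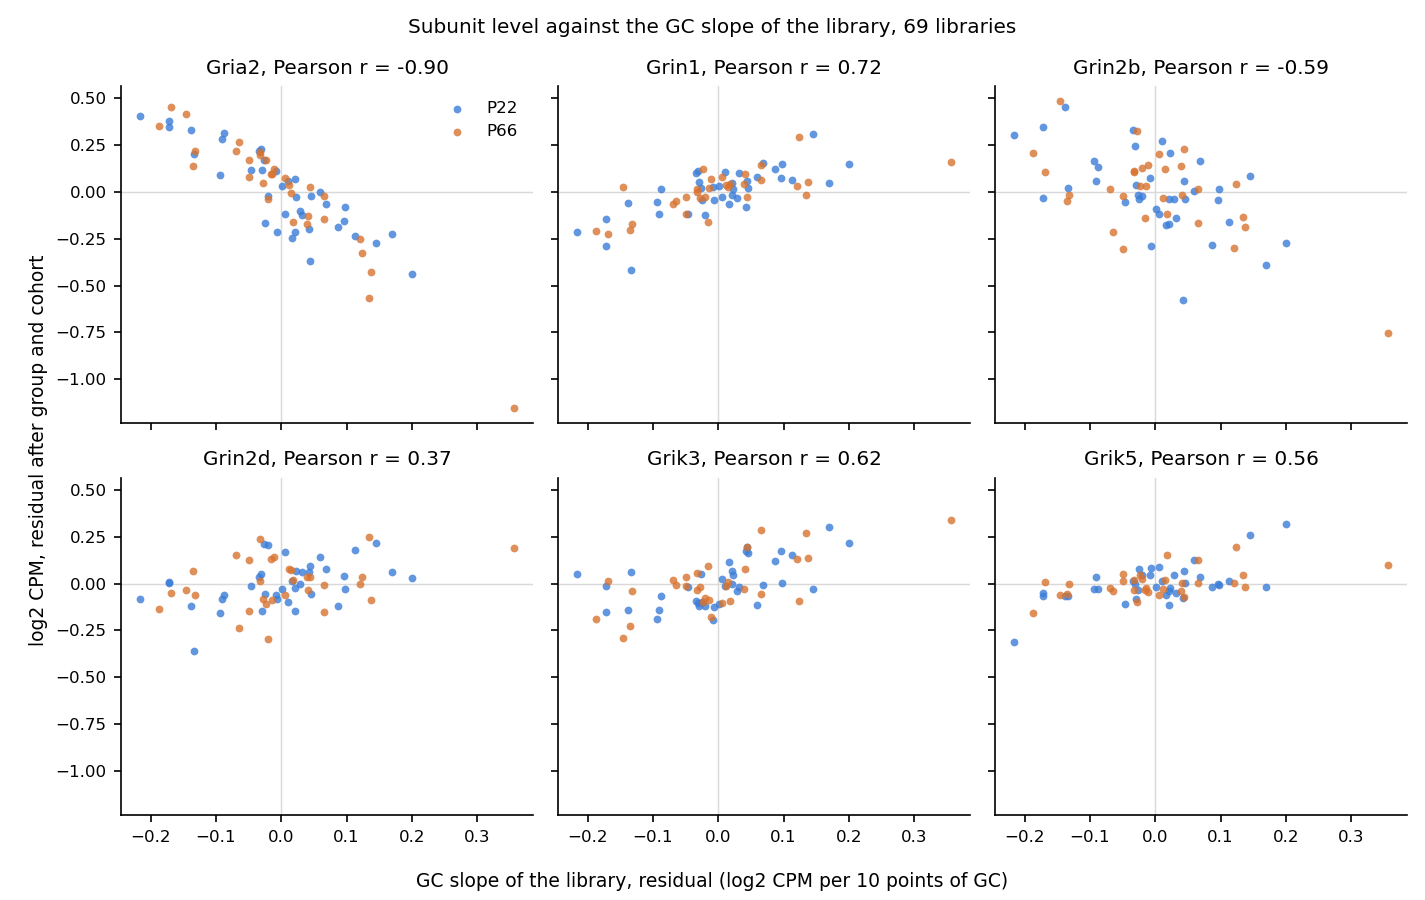
Residual log2 CPM of each subunit gene (y axis) against the residual GC slope of the library (x axis) after group and cohort terms, 69 libraries, blue at P22 and orange at P66. Gria2 falls along the slope (r = -0.90) and Grin1 rises (r = 0.72). The library at the far right is that of separated knockout mouse 56 at P66.

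The genes whose residual levels ran most closely with each subunit gene are given as a description over the same 69 libraries. For Gria2 they were Rb1cc1, an autophagy gene (r = 0.96), and Zcchc11, a terminal uridylyltransferase gene (r = 0.95). For Grin2b they were Cacna1e, which encodes an R-type calcium channel (0.91), and Pclo, which encodes the presynaptic protein Piccolo (0.87). Grin1 ran with Zer1 (0.90) and Ggt7 (0.89), Grik3 with Efhd2 (0.86) and the microtubule regulator gene Stmn1 (0.83), and Grik5 with Epn1 (0.79) and Adgrb2 (0.79). Grin2d had no close companion, with Tox2 (0.57) and Zfp865 (0.57) at the top, and its r with the interneuron score was 0.39. Other pairs of gene and marker score had r of similar size. Examples are Grin2b with the oligodendrocyte score (-0.40), and Grik3 (0.37) and Grik5 (-0.36) with the thalamus score. Among the 6 themselves, Gria2 and Grin2b varied together (0.67), Grin1 with Grik5 (0.54), and Gria2 opposite to Grik3 (-0.61), Grin1 (-0.50) and Grik5 (-0.49). Grin2b varied opposite to Grik3 (-0.59). The other 9 pairs lay between -0.31 and 0.30. All these values share the libraries and their GC slope.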

How the data were processed

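The hippocampal RNA of 69 mice was sequenced as total RNA libraries. The tools named in the submitters' processing notes are cutadapt 1.16, FastQC 0.11.4, limma 3.34.9 and edgeR, without their roles. How reads were aligned and counted, and on which build, is not stated there. The authors deposited whole-number read counts per gene, without normalization, with 1 column per mouse. The 9930 complete gene records were used, and 1 record broken at the end was left out. GENCODE M21 (GRCm38) holds 99.5% of the identifiers, 96.5% of them at the deposited position, and positions are given on that build.

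Groups, ages and cohorts were taken from the sample titles. The analysis used edgeR 4.0.16 under R 4.3.3 (quasi-likelihood test, TMM normalization, filterByExpr with minimum count 10 and minimum total 15), with a term for each of the 8 groups and for cohort. All 69 libraries were fitted together for age (7131 genes tested), and each age alone for genotype and rearing (7036 genes at P22, 7001 at P66). All 6 genes described here passed the filter in each fit. The threshold was 0.05 for p after Benjamini-Hochberg adjustment over all genes tested. Libraries held 11283370 to 16365465 counts. Counting error was not compared with the spread among mice, and it weighs most in Grin2d, with 364 to 755 counts per library. Of 272 pairs of libraries within groups none agreed within sampling noise (chi-square per degree of freedom 4.47 to 88.0). Mice were treated as independent, since the labels give each mouse a number but name no litters. Where littermates resemble each other, p-values for rearing are too small.

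CPM are on TMM-scaled library sizes, and log2 CPM for correlations used a prior count of 2. The GC slope was fitted with transcript length as a second term. The members, gene lists and tests were chosen with earlier results of these data known. The named genes are the 6 members, a further receptor subunit gene, per pathway list the called genes with the largest rise and fall with age, and per member the 2 genes with the highest residual correlation. Coding stretches and GC content were read from GENCODE M21 transcripts. Some items are not reported here. The alternatives were DESeq2 1.42.0, limma 3.58.1 (voom), RLE, upper quartile or no scaling, no or a stricter count filter (1 CPM in 7 libraries), no cohort term, single cohorts, an adjusted p under 0.1, 1 fit of all libraries, choroid plexus or oligodendrocyte score as covariate, and leaving out each library. The GC slope as covariate, and leaving out libraries beyond 2 SD of it or more than 2 (log2) from the median choroid plexus score, were added after the data were seen. The fits were tested on simulated data.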

Additional observations from a re-analysis of the deposited data

Results flagged for a closer look

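Of 42 sets of 4 to 10 libraries (6 genes in 7 groups), 6 held a highest or lowest library whose gap to its neighbour was large against the range of the set by Dixon's 95% limit, where chance gives about 1 in 20. Control knockout mouse 4 of cohort 1 at P22 had the highest Grik5 (827 CPM, next 694 CPM) and the highest Grin1 (1688 CPM, next 1382 CPM) of its group. Separated wildtype mouse 55 of cohort 1 at P66 was highest in the same pair of genes, Grik5 (707 CPM, next 619 CPM) and Grin1 (1498 CPM, next 1283 CPM). Separated knockout mouse 56 of cohort 1 at P66 was highest in Grik3 (392 CPM, next 313 CPM), and control knockout mouse 22 of cohort 1 at P66 was highest in Grin2b (1484 CPM, next 1291 CPM). The GC slopes of these 4 libraries were 0.225, 0.070, 0.411 and -0.190, beside a range of -0.194 to 0.411 over all 69.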

How the results depend on the processing

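No paired analysis was possible because mice were numbered anew in each cohort and rearing condition, and an equal number in 2 groups names different animals. Of 22 comparisons, 18 called none of the 6 genes. Among these 18, only age in control wildtype mice had a gene called under any alternative. For age over all groups 4 genes were called, 3 or 4 under the other alternatives, and 1 each in cohort 1 alone (Grik3) and with the oligodendrocyte score as covariate (Grik5). With that covariate, which nearly separates the ages, the values of Gria2 and Grik3 changed sign, to -0.062 and 0.014. Leaving out 1 library gave 3 to 4.

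Calls of age within single groups were less firm. For control wildtype mice (0 called) the count was 1 with the oligodendrocyte score, the GC slope, without libraries of extreme GC slope, and at an adjusted p under 0.1, and 0 to 1 leaving out 1 library (1 without its mouse 56 of cohort 1 at P22). For separated wildtype mice (2 called) it was 0 in either cohort alone, 1 with no count filter, the stricter filter, the oligodendrocyte score, the GC slope, or without libraries of extreme choroid plexus score, and 0 to 2 leaving out 1 library. For control knockout mice (3 called) it was 0 in cohort 1 alone and with the oligodendrocyte score, 1 in cohort 2 alone and without libraries of extreme GC slope or choroid plexus score, and 1 to 3 leaving out 1 library (1 without mouse 4 of cohort 1 or 43 of cohort 2 at P22, or mouse 22 of cohort 1 at P66). For separated knockout mice (1 called) it was 0 with upper quartile scaling, no count filter, cohort 1 alone, the oligodendrocyte score or without libraries of extreme choroid plexus score, 2 with the GC slope, without extreme GC slopes or at an adjusted p under 0.1, and 0 to 2 leaving out 1 library. The cause of these changes was not tested, although single cohorts and left-out libraries also mean fewer samples. Genes called by age among all tested were 2176 in cohort 1 alone and 953 with the oligodendrocyte score, beside 3707. For rearing at P66 they ran from 0 in cohort 1 alone to 188 with the GC slope, beside 26, and for genotype at P66 from 0 in cohort 1 alone to 96 in cohort 2 alone, beside 4. None of these moved calls at P66 added 1 of the 6 genes.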
